A study of Mus musculus with 6 samples.

Results

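CC chemokines are small secreted proteins, named for a pair of adjacent cysteines, that bind G protein-coupled receptors on leukocytes and draw those cells along a gradient. In a mammary tumour they can be made by macrophages, lymphocytes, fibroblasts, endothelium and tumour epithelium, and the monocyte chemoattractants among them are known for bringing monocytes from blood into the tissue. The 10 genes described here, Ccl2, Ccl3, Ccl4, Ccl5, Ccl6, Ccl7, Ccl8, Ccl9, Ccl11 and Ccl12, were taken by name: a gene entered through the probe sets whose platform annotation gives its symbol alone, and the probe set with the highest mean over all 6 arrays stood for it. All 10 were found, on 12 probe sets, and all 10 are among the 15027 genes that remained after the dimmest 25% of probe sets, those with a mean below log2 2.98 (the dim cut), were left out. The genes were chosen on the measured log2 difference between the labelled populations, which was already known, so their levels and differences are given as a description and no test was made on them.

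Tumours were taken from 3 MMTV-Wnt-1 mice. In these mice the promoter of mouse mammary tumour virus drives Wnt1 in the mammary gland, a transgene that all samples share, and the labels give no age or strain. Cells were sorted by fluorescence, and each mouse gave 1 array labelled tumorigenic, gated as CD24+ Thy+ CD45-, and 1 array labelled nontumorigenic, the cells outside that gate. The second label does not settle whether CD45+ cells were kept. Total RNA was amplified and hybridised to an Affymetrix array, and the deposited values are on a log2 scale, so that 1 unit is a doubling of signal. Ptprc, which encodes CD45, read 10.21, 7.76 and 3.82 in the labelled tumorigenic arrays of mice 1, 2 and 3, against 2.33, 3.59 and 2.51 in the labelled nontumorigenic arrays. The transcript of the antigen that the gate should remove was thus higher under the tumorigenic label, and most so in mice 1 and 2. Cd24a, a gate marker, read 11.85, 12.34 and 12.84 under the tumorigenic label and 12.86, 12.84 and 12.99 under the other. Thy1, the other gate marker, read 10.83, 10.51 and 9.33 against 10.25, 9.67 and 10.04. Neither gate marker separated the labels in the direction of the gate in all mice, so every direction below is one between labels.

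By the size of the log2 difference between the labels, the CC chemokines divided into 7 genes with differences of 2.60 to 4.41 and 3 genes, Ccl2, Ccl7 and Ccl11, with differences of -0.035 to 0.64. In all but Ccl11 the labelled tumorigenic arrays of mice 1 and 2 were higher than every labelled nontumorigenic array, and in Ccl2, Ccl7, Ccl11 and Ccl12 the labelled tumorigenic array of mouse 3 was the lowest of the 6. The median log2 difference of the 10 genes, labelled tumorigenic mean minus labelled nontumorigenic mean, was 2.75, against 0.0051 over all genes tested. Differences were positive in 9 of the 10, where 50.7% of all genes had a positive one, and 7 of the 10 exceeded 1 log2 unit, where 4.29% of all genes did. In 5 of the 10 the 3 labelled tumorigenic arrays all lay above the 3 labelled nontumorigenic arrays, against a background of 6.90% of all genes; in none did they all lie below, where 5.59% of all genes did. Leaving out mouse 3's labelled tumorigenic array, or both of its arrays, gave a first count of 9 of 10, where 16.8% of all genes did so with the array left out and 21.8% with the mouse left out. From that array alone, an alternative chosen after seeing the data, the median difference was 0.034. By limma, which fits a linear model to every gene, 0 of 15027 genes passed an adjusted p of 0.05 in either direction (0% called; 8.50% had an unadjusted p below 0.05), and leaving out mouse 3's labelled tumorigenic array the count was 18.

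**Figure D1:**
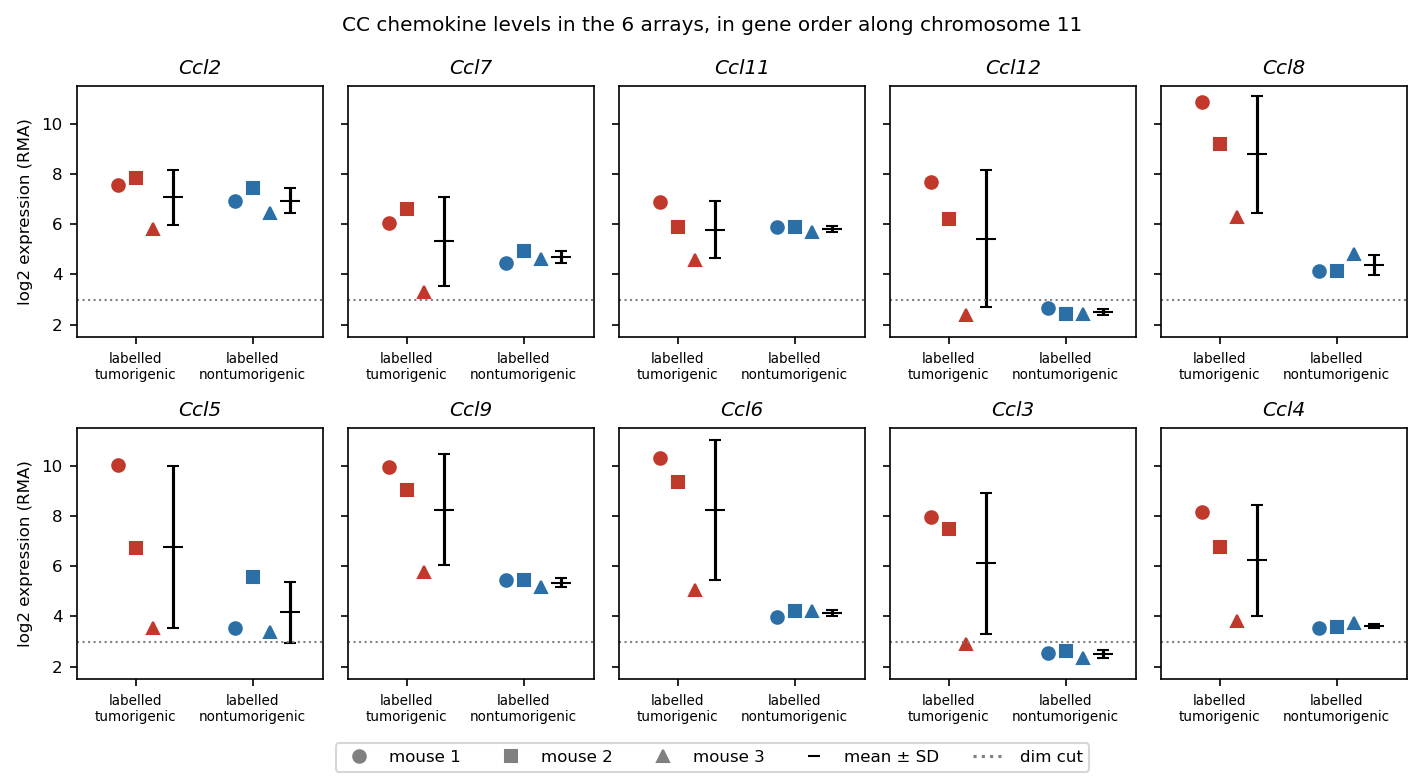
Log2 expression (vertical axis) of each CC chemokine in the 3 labelled tumorigenic arrays (left, red) and the 3 labelled nontumorigenic arrays (right, blue), with the mouse given by the marker, the mean ± SD as black bars and the dim cut of 2.98 as a dotted line. For Ccl12, Ccl8, Ccl5, Ccl9, Ccl6, Ccl3 and Ccl4 the red circle and square lie above every blue marker, and the red triangle of mouse 3 lies below both; for Ccl2, Ccl7, Ccl11 and Ccl12 the red triangle is the lowest of the 6 points.

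All 10 genes lie on mouse chromosome 11, in 2 runs with no other protein-coding gene between neighbours in the RefSeq annotation of GRCm38.p6. The first run reads Ccl2, Ccl7, Ccl11, Ccl12, Ccl8 and holds the monocyte chemoattractant and eotaxin genes. The second reads Ccl5, Ccl9, Ccl6, Ccl3, Ccl4 and holds the macrophage inflammatory protein genes, with 26 protein-coding genes between the runs. The patterns followed this order: the 3 genes with the small differences were the first 3 neighbours of the first run, and the 7 with the large differences were the last 2 of that run and all 5 of the second.

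In the first run, Ccl2 encodes monocyte chemoattractant protein 1, a ligand of the receptor CCR2. It read 7.57, 7.83 and 5.80 in the labelled tumorigenic arrays of mice 1, 2 and 3, against 6.91, 7.46 and 6.45 in the labelled nontumorigenic arrays. The ranges overlapped, with the tumorigenic label holding both the highest and the lowest array. The means were 7.07 ± 1.11 and 6.94 ± 0.50 (SD, n = 3 each). Their difference of 0.13 log2 units was smaller than either spread and changed sign when single arrays or mice were left out, lying between -0.26 and 0.76. Within mice 1, 2 and 3 the differences were 0.66, 0.38 and -0.66.

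Ccl7, a related monocyte chemoattractant that also signals through CCR2, read 6.05, 6.62 and 3.31 under the tumorigenic label and 4.47, 4.94 and 4.63 under the other. Mice 1 and 2 were higher and mouse 3 lower than all 3 labelled nontumorigenic arrays, so the groups overlapped. The means were 5.33 ± 1.77 and 4.68 ± 0.24 (SD, n = 3 each) and the log2 difference was 0.64, within the labelled tumorigenic spread. Ccl11 encodes eotaxin, an attractant of eosinophils through CCR3. It read 6.88, 5.88 and 4.59 under the tumorigenic label and 5.88, 5.88 and 5.69 under the other. The value of 5.88 was exactly the same in 3 arrays, a tie that the authors' normalisation can leave, and the groups overlapped around it. The Ccl11 means were 5.78 ± 1.15 and 5.82 ± 0.11 (SD, n = 3 each), with a difference of -0.035, or 0.56 when mouse 3's labelled tumorigenic array was left out. Ccl2, Ccl7 and Ccl11 thus had no direction between the labels that held across mice.

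Ccl12 encodes monocyte chemoattractant protein 5, a mouse CCR2 ligand. It read 7.69, 6.19 and 2.39 in the labelled tumorigenic arrays, against 2.66, 2.44 and 2.43 in the labelled nontumorigenic arrays. Mice 1 and 2 were high, and the remaining 4 arrays all lay below the dim cut, with mouse 3 under the tumorigenic label the lowest of them. The means were 5.43 ± 2.73 and 2.51 ± 0.13 (SD, n = 3 each); the difference of 2.92 is rough in size because its lower side is dim. Ccl8, whose mouse protein is a ligand of CCR8, read 10.88, 9.18 and 6.28 against 4.15, 4.13 and 4.83. It was the member in which mouse 3 stood out from the labelled nontumorigenic arrays by the most, and the groups did not overlap. It averaged 8.78 ± 2.33 and 4.37 ± 0.40 (SD, n = 3 each), a difference of 4.41, or 21.2-fold, and the differences within mice 1, 2 and 3 were 6.72, 5.05 and 1.45. The Ccl8 difference was 3.36 when mouse 1's labelled tumorigenic array was left out and 5.66 when that of mouse 3 was.

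In the second run, Ccl3 and Ccl4 encode the macrophage inflammatory proteins 1 alpha and 1 beta; the first is a ligand of CCR1. Ccl3 read 7.96, 7.496 and 2.90 under the tumorigenic label and 2.56, 2.63 and 2.35 under the other. All of these but the arrays of mice 1 and 2 were below the dim cut, and the groups did not overlap, by a margin within the dim range. It averaged 6.12 ± 2.80 and 2.51 ± 0.15 (SD, n = 3 each), a difference of 3.61 that is rough for the same reason. Ccl4 read 8.15, 6.75 and 3.81 against 3.55, 3.597 and 3.72, again without overlap, but with mouse 3 only just above. The Ccl4 means were 6.24 ± 2.22 and 3.62 ± 0.089 (SD, n = 3 each), a difference of 2.61, made up of 4.60, 3.15 and 0.087 in mice 1, 2 and 3.

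Ccl6 and Ccl9 are rodent genes whose products bind CCR1. Ccl6 read 10.29, 9.36 and 5.05 in the labelled tumorigenic arrays and 3.996, 4.21 and 4.22 in the labelled nontumorigenic arrays. The groups did not overlap, and the means of 8.24 ± 2.79 and 4.14 ± 0.13 (SD, n = 3 each) differed by 4.09, or 17.1-fold. The Ccl6 difference was 3.07 when mouse 1's labelled tumorigenic array was left out and 5.68 when that of mouse 3 was. The other Ccl6 probe set gave 7.06, 6.41 and 2.31 against 2.53, 2.48 and 2.42, a difference of 2.78, with mouse 3 below the labelled nontumorigenic arrays instead of above them. Ccl9 read 9.96, 9.01 and 5.75 against 5.44, 5.46 and 5.16. These groups did not overlap either, with means of 8.24 ± 2.21 and 5.35 ± 0.17 (SD, n = 3 each) and a difference of 2.89. The second Ccl9 probe set, which was below the dim cut on average, read 2.84, 3.35 and 2.57 against 2.86, 2.92 and 2.94 and showed a difference of only 0.011.

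Ccl5 encodes RANTES, made by activated T and NK cells and by macrophages, and a ligand of CCR1. It read 10.03, 6.72 and 3.56 in the labelled tumorigenic arrays and 3.56, 5.57 and 3.37 in the labelled nontumorigenic arrays. The groups overlapped: mouse 3 had exactly the value of mouse 1 under the other label, and mouse 2 was well above mouse 3 under both labels. The means were 6.77 ± 3.24 and 4.17 ± 1.22 (SD, n = 3 each), a difference of 2.60 that became 0.97 when mouse 1's labelled tumorigenic array was left out and 0.67 when both of its arrays were. Ccl5 was the member with the widest gap between the labelled tumorigenic arrays of mice 1 and 2, at 3.31 log2 units, against gaps of 0.46 to 1.70 in the other 6 genes with large differences. Ccl2 and Ccl7 had gaps of -0.27 and -0.57, since their highest array was that of mouse 2.

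**Figure D2:**
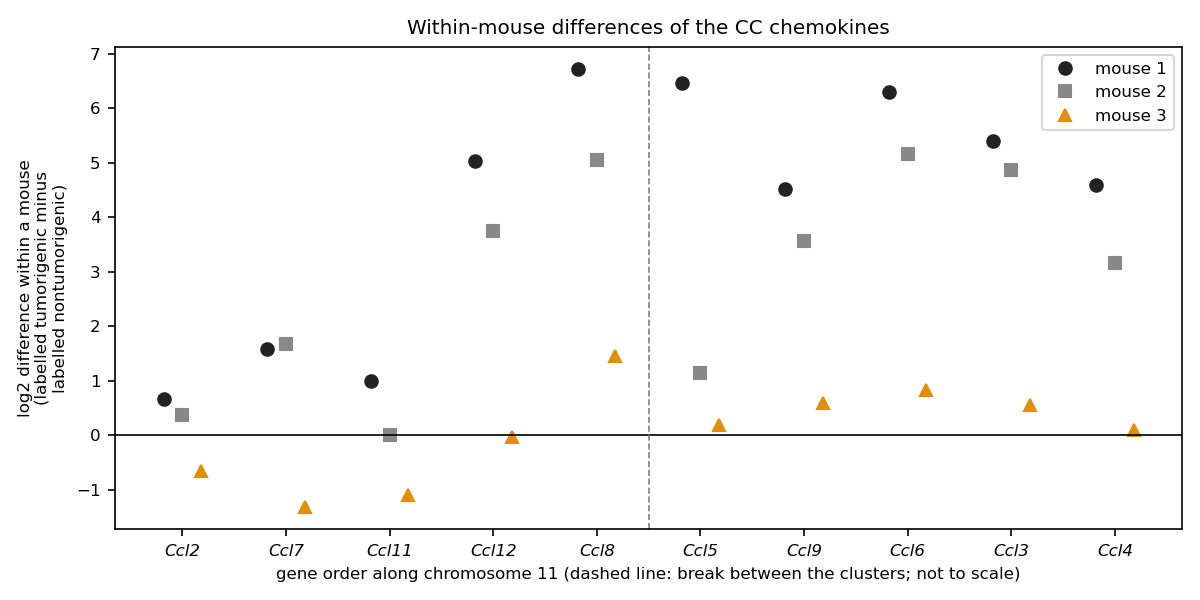
Log2 difference within each mouse (vertical axis, labelled tumorigenic minus labelled nontumorigenic array) for the CC chemokines in their order along chromosome 11, with the break between the 2 runs dashed. Mouse 1 (circles) lies between 0.66 and 6.72, mouse 2 (squares) between 0 and 5.15, and mouse 3 (triangles) between -1.32 and 1.45, and the first 3 genes carry the lowest values in mouse 3.

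The differences varied from mouse to mouse. In mouse 1 the within-mouse difference exceeded 1 log2 unit in 8 of the 10 genes, where 9.96% of all genes did, and in mouse 2 also in 8 of 10, where 8.86% did. Ccl2 and Ccl11 were the exceptions in both mice. In mouse 3 only Ccl8 exceeded 1 unit, 1 of 10 against 5.57% of all genes, and Ccl7 and Ccl11 lay below -1, which is 2 of 10 against 4.86%. The labelled tumorigenic array of mouse 3 lay above all 3 labelled nontumorigenic arrays in 5 of the 10 genes (25.4% of all genes) and below them in 4, namely Ccl2, Ccl7, Ccl11 and Ccl12 (22.0%). In the labelled nontumorigenic arrays the genes were steadier: their range over the 3 mice was 2.21 for Ccl5 and 1.003 for Ccl2, and between 0.17 and 0.70 for the others.

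On average, markers of leukocytes moved with the 7 genes. Over 8 pan-leukocyte markers, all measured and all with positive differences, the mean log2 level was 9.93, 8.004 and 5.83 in labelled tumorigenic mice 1, 2 and 3, against 5.11, 5.38 and 4.83 in the labelled nontumorigenic arrays. Over 15 macrophage markers, all measured and 14 with positive differences, it was 10.16, 8.57 and 5.49 against 4.26, 4.22 and 4.46. The summed unlogged signal ran from 2115 to 13801 against 1137 to 1485 for the first list, and from 1057 to 27728 against 519 to 646 for the second. Not every marker followed its list. The pan-leukocyte marker Lcp1 read 11.13, 9.15 and 10.74 against 9.84, 10.20 and 9.95, lowest in mouse 2 under the tumorigenic label. Csf1r, the receptor that macrophages need for survival, read 12.47, 11.29 and 7.12 against 4.86, 4.98 and 5.89. Cd14, the 1 macrophage marker with a negative difference (-0.20), read 9.14, 8.49 and 6.78 against 8.53, 8.11 and 8.37. No marker of either list was below the dim cut in all arrays. The part of these cells in the chemokine differences was not tested, and in bulk RNA more cells of a type and more RNA per cell cannot be told apart.

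T and NK cell markers, of which 11 of 14 were measured, were on average high in 1 array: their mean was 6.62, 4.12 and 3.53 under the tumorigenic label and 3.90, 3.99 and 3.75 under the other. Their summed signal was 149 to 2502 against 248 to 301. Of the 10 past the dim filter, 9 had positive differences and 1, Cd3e, a negative one. Cd3e read 10.28, 6.95 and 3.50 against 7.15, 7.29 and 7.05. Ccl5 was also highest in the labelled tumorigenic array of mouse 1, as were 8 of the 10 members in all. In mouse 2 Ccl5 read 6.72 against at most 5.57 under the other label, where the marker mean was 4.12 against at most 3.99. The relation of Ccl5 to these cells was not tested. Fibroblast markers, 8 of 8 measured with 6 positive differences, averaged 10.92, 10.98 and 9.34 against 9.66, 10.48 and 10.40, and summed to 13778 to 26454 against 16937 to 20853. Like Ccl2, Ccl7 and Ccl11, they were highest in mice 1 and 2 under the tumorigenic label and lowest in mouse 3, with levels in between under the other label; for Ccl11 mouse 2 was tied with that label. Mast cell and eosinophil markers stayed at the floor, with 5 of 7 below the dim cut in all arrays (Cpa3, Mcpt4, Fcer1a, Prg2 and Siglecf) and sums of 45.0 to 49.2 against 46.8 to 48.8. Their part and that of fibroblasts in the levels of Ccl11, Ccl2 and Ccl7 was not tested.

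The likeness of each chemokine to the marker lists was measured as the root mean square difference between their log2 profiles over the 6 arrays, each centred on its own mean. The arrays share 3 mice, and with 6 points the measure is a description. The profiles were not scaled, so the measure also depends on how large the changes of a gene or list were. The macrophage list was nearest for Ccl8 (0.36), Ccl6 (0.40), Ccl3 (0.49) and Ccl12 (0.49, with the pan-leukocyte list close at 0.52). The pan-leukocyte list was nearest for Ccl4 (0.32), Ccl9 (0.36) and Ccl5 (0.90), and the fibroblast list for Ccl2 (0.38), Ccl11 (0.45) and Ccl7 (0.56). Of the 10 lists, which also covered B cells, neutrophils, endothelium and luminal and basal epithelium, these 3 were therefore nearest to some member. Endothelial markers were higher under the tumorigenic label in mouse 3 too, with means of 7.40, 7.86 and 7.13 against 6.31, 5.61 and 5.73, and luminal markers were lower, with 6.98, 8.59 and 8.77 against 9.95, 9.81 and 10.14.

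**Figure D3:**
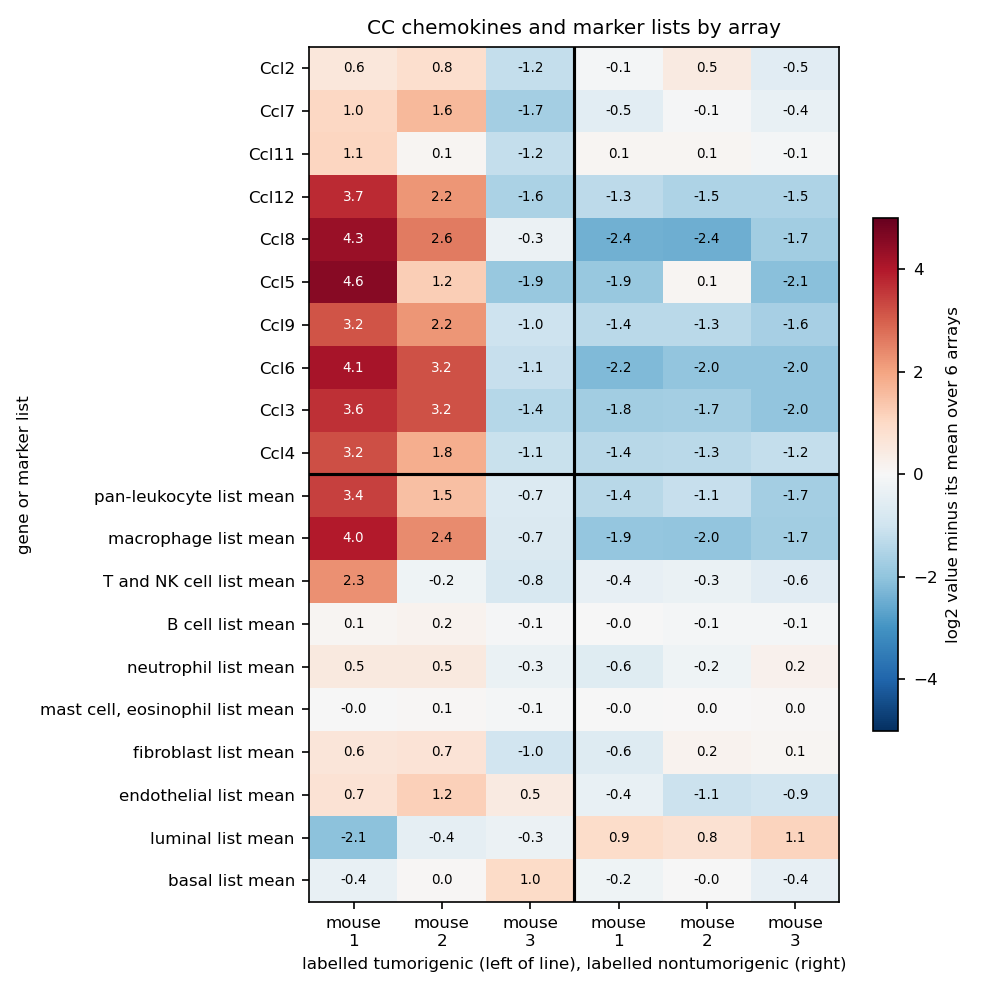
Log2 value minus its mean over the 6 arrays (colour and printed number) for the 10 CC chemokines and the means of 10 marker lists (rows), in the labelled tumorigenic arrays (left of the line) and the labelled nontumorigenic arrays (right). The rows from Ccl12 to Ccl4 are red in mice 1 and 2 on the left, like the leukocyte and macrophage rows; Ccl2, Ccl7 and Ccl11 have paler rows with their lowest value in mouse 3 on the left, like the fibroblast row.

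By the same measure, the nearest single genes outside the family were picked from all other genes past the dim filter. With so many candidates, values closer than those of the list means are found by construction. C1qa, Tyrobp, Mpeg1, Fcer1g, Aif1 and Coro1a are also markers of those lists. Ccl6 was nearest to C1qa, a chain of complement C1q (0.24), then to the signalling adaptor Tyrobp (0.31) and the Fc receptor Fcgr3 (0.33). For Ccl3 they were the macrophage protein Mpeg1 (0.28), the Fc receptor chain Fcer1g (0.36) and Ms4a6d (0.36), and for Ccl8 the adaptor Fyb (0.24), the leukocyte actin-binding protein Coro1a (0.31) and Fcgr3 (0.31). Ccl12 lay next to Rgs1, a regulator of G protein signalling (0.16), Gm6377 (0.22) and Ly86 (0.24), Ccl9 next to AI504432 (0.22), Mpeg1 (0.32) and Marchf1 (0.33), and Ccl4 next to the phosphatase Ptpro (0.20), Tlr1 (0.27) and Marchf1 (0.28). Ccl5 had more distant neighbours: the adaptor Sla (0.44), Aif1 (0.61) and Adamdec1 (0.65). The genes nearest to the other 3 members were of another kind. They were the oestrogen receptor Esr1 (0.12), the chemokine Cxcl1 (0.14) and Pla1a (0.15) for Ccl2, the non-coding RNA Meg3 (0.15), Ifi204 (0.21) and the matrix protein Thbs4 (0.22) for Ccl7, and the Notch-responsive factor Heyl (0.14), Hopx (0.20) and the collagen Col5a1 (0.21) for Ccl11. Among the 45 pairs of members, Ccl4 and Ccl9 were nearest to each other (0.24), followed by Ccl3 and Ccl6 (0.31); Ccl2 was nearest to Ccl11 (0.44).

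Upstream sequence was held for 5 of the 10 members, all of them among the 7 with large differences, and is shown because these genes shared a profile over the arrays. The 250 bases before the annotated start are from RefSeq on GRCm38.p6, in the direction of the gene: chr11:82101595-82101844 (plus strand) for Ccl12, chr11:82114935-82115184 (plus) for Ccl8, chr11:83578637-83578886 (minus) for Ccl9, chr11:83593088-83593337 (minus) for Ccl6 and chr11:83649379-83649628 (minus) for Ccl3. Capitals mark GGAAGT on either strand, the core bound by ETS factors such as PU.1, the lineage factor of macrophages.
Ccl12: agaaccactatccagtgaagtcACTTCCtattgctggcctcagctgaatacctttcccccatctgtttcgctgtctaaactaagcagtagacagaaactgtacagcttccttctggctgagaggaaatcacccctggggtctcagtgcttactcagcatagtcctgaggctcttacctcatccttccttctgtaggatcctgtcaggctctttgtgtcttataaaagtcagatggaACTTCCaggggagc
Ccl8: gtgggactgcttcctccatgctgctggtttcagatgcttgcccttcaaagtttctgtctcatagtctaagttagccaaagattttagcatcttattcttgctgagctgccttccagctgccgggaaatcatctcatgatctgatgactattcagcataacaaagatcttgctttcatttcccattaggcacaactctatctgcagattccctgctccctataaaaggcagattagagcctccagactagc
Ccl9: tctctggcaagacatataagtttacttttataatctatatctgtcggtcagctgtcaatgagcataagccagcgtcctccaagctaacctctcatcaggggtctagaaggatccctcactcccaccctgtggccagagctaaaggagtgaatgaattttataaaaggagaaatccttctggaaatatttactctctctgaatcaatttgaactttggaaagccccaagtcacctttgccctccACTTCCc
Ccl6: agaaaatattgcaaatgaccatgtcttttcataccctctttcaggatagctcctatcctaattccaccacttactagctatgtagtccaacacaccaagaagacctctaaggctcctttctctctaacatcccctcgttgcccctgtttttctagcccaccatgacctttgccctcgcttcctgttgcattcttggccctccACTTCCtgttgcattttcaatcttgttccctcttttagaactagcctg
Ccl3: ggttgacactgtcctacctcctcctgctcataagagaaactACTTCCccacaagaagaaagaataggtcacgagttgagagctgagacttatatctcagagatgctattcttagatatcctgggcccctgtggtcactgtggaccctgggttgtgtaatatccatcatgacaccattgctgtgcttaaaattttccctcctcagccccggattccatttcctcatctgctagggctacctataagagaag
The 6 motifs searched on both strands were chosen with these sequences in view. GGAAGT was found in 4 of the 5, with 2 matches in Ccl12 and none in Ccl8, and in 19.7% of all 32851 annotated upstream regions of that length. TATAAA, the letters of the TATA box, was found in 3 of the 5 against 12.4%. In the neighbours Ccl12 and Ccl8 it began 31 and 32 bases before the start. In Ccl9 the matches lay further off, at 224, 94 and 92 bases. Those at 224 and 94 are on the opposite strand, and those at 94 and 92 overlap in the same stretch, TTTATAAA. TGANTCA, an AP-1 site, was found in Ccl9 alone (6.75% of all), and TTGCNNAA for C/EBP (9.56%), an NF-kB site (0.356%) and an interferon-stimulated response element (2.98%) in none; no match says only that the letters are not in this window. No match overlapped a match of another motif, and none is shown to be a binding site. Ccl12 and Ccl8 were also the most alike of the 10 pairs, with 145 identical positions in a global alignment of 250 bases (58%), against 114 to 136 in the other pairs.

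The rest of the ligand family was examined as a list. Since the members were chosen on their differences, the genes left for this list were set by the same values, and their differences are not independent of that choice. Of 14 other CC chemokines 8 had a probe set of their own symbol, 1 of these (Ccl1) was below the dim filter, and a further 4 probe sets whose annotation joins several CC chemokine genes were left out. Of the 7 tested by limma, 0 passed the adjusted threshold, the smallest adjusted p being 0.630. An unadjusted p below 0.05 was found in 0 of the 7, against 8.50% of all genes. Their median log2 difference was -0.14, with 3 positive and 4 negative, against 0.0051 over all genes. Ccl20, the ligand of CCR6, read 2.51, 2.84 and 3.07 under the tumorigenic label and 3.73, 3.22 and 3.07 under the other, a difference of -0.53 near the dim cut. Ccl24, another eotaxin, differed by 0.27, the thymic chemokine Ccl25 by -0.24, the skin chemokine Ccl27a by -0.14 and Ccl17, a ligand of CCR4, by 0.079. None of the 7 had groups that did not overlap, where 6.90% of all genes lay above and 5.59% below. With only 7 genes, counts of 0 are not set apart from these shares. These values are those of the same contrast and the same arrays as the members' values.

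Of 14 CC receptors and atypical receptors measured, 10 passed the dim filter; Ccr1l1, Ccr3, Ccr4 and Ccr8 were below it in all arrays. By limma 0 of the 10 passed and 1 had an unadjusted p below 0.05 (8.50% of all genes did), with a median difference of 0.094. That one was Ccr1, the receptor shared by Ccl3, Ccl5, Ccl6 and Ccl9: it read 6.17, 4.56 and 2.44 in the labelled tumorigenic arrays and 2.26, 2.17 and 2.03 in the others, a difference of 2.24 (SE 0.88; limma adjusted p = 0.572), with no overlap but 4 arrays below the dim cut. Ccr1 thus passed the dim filter only through mice 1 and 2 under the tumorigenic label. With no dim filter, or with the dimmest 50% of probe sets left out, 0 receptors had an unadjusted limma p below 0.05. Ccr2, the receptor of Ccl2, Ccl7 and Ccl12, was seen in 1 array: it read 6.56, 2.37 and 2.30 against 2.20, 2.15 and 2.35. Ccrl2, an atypical receptor that binds chemerin, read 9.19, 8.60 and 5.10 against 4.94, 6.28 and 6.55, so that mice 1 and 2 were high and mouse 3 lay within the other group's range. The scavenging receptor Ackr4 read 9.74, 10.15 and 9.97 against 8.96, 10.26 and 9.47, with overlapping groups, and Ccr7 differed by 0.086. For Ccl8 and Ccl11 the receptors Ccr8 and Ccr3 were thus at the floor in both populations.

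NF-kB drives transcription of several CC chemokine genes after inflammatory stimuli. Its subunits and regulators, inflammatory cytokines and the adhesion molecule Icam1 were examined as a list. Of 15 genes 14 were measured, and by limma 0 passed and 2 had an unadjusted p below 0.05 (8.50% of all genes did). Of the differences, 12 were positive and 2 negative, with a median of 0.32. Il1b, the inflammatory cytokine interleukin 1 beta, read 8.59, 8.51 and 4.75 under the tumorigenic label and 4.51, 4.64 and 3.54 under the other, a difference of 3.05 (SE 1.07; limma adjusted p = 0.532). Its 6 arrays ranked in the order of those of Ccl3. The adhesion molecule Icam1 read 11.07, 11.68 and 11.33 against 10.77, 10.80 and 10.29, a difference of 0.74 (SE 0.24; limma adjusted p = 0.521) that was widest in mouse 3. The regulators Bcl3, Nfkbie and Nfkb2 differed by 0.80, 0.84 and 0.40 (limma adjusted p of 0.607, 0.622 and 0.735). The other cytokines of the list, Tnf and Il6, differed by 0.30 and -0.31, with overlapping groups. Both Il1b and Icam1 had groups that did not overlap, as had Bcl3, which makes 3 of 14 against 6.90% of all genes.

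**Figure D4:**
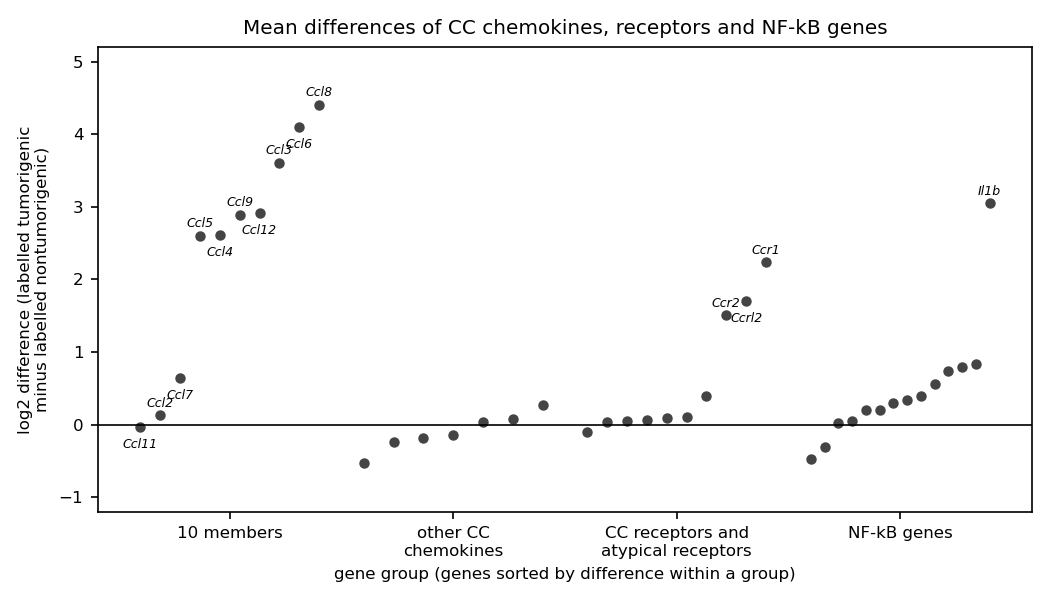
Log2 difference between labelled tumorigenic and labelled nontumorigenic means (vertical axis) for the 10 members, 7 other CC chemokines, 10 receptors and 14 NF-kB genes, each sorted by value. Of the members 7 lie above 2.5, the other CC chemokines lie between -0.53 and 0.27, and outside the members only Ccr1, Ccrl2, Ccr2 and Il1b exceed 1.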

How the data were processed

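The deposited values are log2 expression per probe set, normalised by the authors with RMA, a robust average over the probes of a set, per the submitters' processing notes. The RMA version is not given there. The log2 scale was inferred from the range of the values, with array medians of 4.36 to 4.40. RMA sets arrays to a common distribution, which removes a shift common to most transcripts, and it can leave exact ties between arrays. Of the 45101 probe sets, controls not counted, 16668 held such a tie. The source of the ties was not tested. Arrays have no sequencing depth; their number limits the precision.

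Controls (64 probe sets) were left out. Names came from the platform annotation where a probe set had 1 symbol (34945), matched by Entrez identifier to RefSeq genes of GRCm38.p6 (34741). The dimmest 25% of probe sets were dropped, and each gene was represented by the probe set with the highest mean, which gave 15027 genes. Differences were fitted by limma 3.58.1 in R 4.3.3 with no covariate, two-sided, with Benjamini-Hochberg adjustment over all genes, and the code was tested on simulated data. An exact permutation test of 3 arrays against 3 cannot go below 0.1 and was not used. Each mouse gave both populations, so the mouse numbers pair the arrays. After subtraction of the population means, the arrays of 1 mouse correlated at 0.079, 0.14 and 0.086 across genes, against -0.083 to -0.010 between mice. The subtraction makes the deviations within a population cancel in each gene. Positive values within mice therefore come with negative ones between mice, which are no separate comparison. Replicates of a population are separate mice.

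The members and lists were chosen with earlier results of these data known. The genes named are all members, the sort markers, up to 5 genes of smallest p for each list of other CC chemokines, receptors and NF-kB genes, markers of highest level, and the 3 genes nearest in profile to each member whose range was at least 1 log2 unit. Tnf and Il6 are named as the other cytokines of the NF-kB list. Alternatives covered the mouse as a block, dim filters of 0 and 50%, renormalisation, other probe set choices, other priors and weights, and leaving out arrays or mice. Alignments used Biopython 1.88 with scores of 1 for a match, -1 for a mismatch, -3 for opening and -1 for extending a gap.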

Additional observations from a re-analysis of the deposited data

How the results depend on the processing

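The number of genes past the limma adjusted threshold was 0, and 1 with no filter on dim probe sets or with probe sets averaged per gene; leaving out an array or a mouse gave 0 to 18, the 18 without the labelled tumorigenic array of mouse 3, and the cause was not tested. With the mouse as a replicate block it was 0 (1435 genes at an unadjusted p below 0.05, against 1277), and the block changed no other call. The counts for other CC chemokines, receptors and NF-kB genes were 0 in all 18 alternatives run. The number of members whose groups did not overlap was 5, 4 with the dimmest 50% of probe sets left out (which removes Ccl3 and Ccl12), and 5 to 9 with an array or a mouse left out. The members' median difference was 1.72 to 4.17 with an array or mouse left out. With the labelled tumorigenic array of mouse 3 alone, the count was 9 and the median 0.034. Of these 9 members 5 lay above and 4 below the labelled nontumorigenic arrays, against 25.4% and 22.0% of all genes. With 1 array on a side, lying outside the other group's range is easier by construction. Single arrays or mice turned the sign of Ccl2 in 5 alternatives, of Ccl7 in 1 and of Ccl11 in 2; in the labelled tumorigenic array of mouse 3 alone, Ccl2, Ccl7, Ccl11, Ccl5 and Ccl12 were negative (-1.14, -1.38, -1.23, -0.61 and -0.12). The other 5 members stayed positive in every alternative run. With an array or mouse left out, the differences ranged from 2.69 to 5.22 for Ccl3, 1.62 to 3.88 for Ccl4, 2.03 to 4.13 for Ccl9 and 1.78 to 4.43 for Ccl12. Values near the dim cut limit the size of the Ccl3 and Ccl12 differences.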
